A study of Drosophila melanogaster with 36 samples.

Results

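The genes described are those of Fat and Dachsous signalling and of the Hippo growth pathway in the wing disc, the larval sheet of cells that forms the adult wing and notum. They were taken as all probe sets annotated only to ft, ds, fj, Fbxl7, dco, kibra, ex, yki, l(2)gl or Hipk. Of these 10 genes 9 had such a probe set, and 10 of the 18769 probe sets on the array that are not controls belonged to them. The array's annotation used here assigns no probe set to ft, which was not analysed here. Testing was limited to probe sets whose log2 signal, averaged over the 36 arrays, was at or above the median of all of them, which corresponds to 259.72. This left 9 probe sets, 1 for each gene, among the 9385 tested. A second probe set of kibra lay below that level.

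Fat and Dachsous are very large cadherins on neighbouring cells that bind each other, and Four-jointed is a Golgi kinase that phosphorylates their extracellular domains and so tunes that binding. In the wing disc, Dachsous and Four-jointed are expressed in opposing gradients that orient cells and limit growth. Signalling from Fat and from upstream proteins such as Expanded and Kibra feeds into the Hippo and Warts kinases, which hold the coactivator Yorkie out of the nucleus. Yorkie drives growth genes together with ex, kibra and fj themselves, so part of the pathway's transcripts also serve as its readout.

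The discs were from 12 fly lines under divergent selection on wing shape, and each line was measured on 3 arrays. The high lines were H, A1, B1, C1 and D1 from Massachusetts (MA) and CA high from California, and the matching low lines were L, A2, B2, C2, D2 and CA low. H and L are founders made isogenic after 20 generations of selection on flies from 1 wild population. Pairs A to D were each bred from crosses of H with L that mixed for 34 generations, were selected again for 25 and were then inbred for 10. The CA lines come from another population. All larvae were in the last instar, kept at 20 °C and dissected at a median of 6.2 h before pupariation, and discs were pooled at 100 to a tube. Each direction within a pair is thus 1 line, and the founder pair is the parent of the other 4 MA pairs. Whether the 3 arrays of 1 line stand for independent cultures is not stated, so p-values across arrays may reflect technical spread alone.

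Values are linear MAS5 signals scaled by the authors to 1 common level per array, and the median signal of an array lay between 243.2 and 433.5. Precision is limited by how many arrays there were. Differences are log2 high minus low. A call is a Benjamini-Hochberg adjusted p below 0.05 over all 9385 probe sets in limma. Within a pair the model held all 36 arrays, and over the MA pairs it held the 10 line means with the pair as a block. Of 14 wing disc markers 11 had a probe set, and 15 of their 16 probe sets lay over the filter level. In the wing disc list pnr, a gene of the notum, fell (-0.41, adjusted p = 0.0167). Among lists for other cells and discs, the summed signals of 2 did not overlap between MA high and low lines. The summed signal of the plasmatocyte and crystal cell (blood cell) markers was 4717 to 7053 in the 5 high lines and 8950 to 14510 in the 5 low lines. Of its 9 tested probe sets 7 fell, a count of 3 without replicate 2 of A2 and of 3 without the founder pair. The summed signal of the tracheal markers btl, Cht7 and Gasp was 21410 to 31170 in high and 13140 to 16540 in low lines, of which only Gasp rose (1.07, adjusted p = 0.00151). In the haltere and leg list 1 of 3 tested probe sets rose, that of Antp (0.35, 0.0478), while the brighter one of Antp gave -0.10 (0.682). Their part in the differences below was not tested. In pooled discs, fewer cells of a type and less RNA per cell cannot be told apart.

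Over the 5 MA pairs, 6 of the 9 genes differed between high and low lines. The ligand gene ds, the kinase gene fj and the Hippo regulator gene ex rose in high lines, and kibra, the polarity gene l(2)gl and the kinase gene Hipk fell. The differences for dco, Fbxl7 and yki did not pass. Across all probe sets 9.69% were called in this comparison, 4.92% higher and 4.76% lower. The median size of the difference was 0.36 over the 9 genes and 0.10 over all probe sets tested. Mean log2 signals of the 5 high and the 5 low lines did not overlap for ds, dco, kibra, ex, l(2)gl and Hipk, against 8.39% of all probe sets. For ex this held on the log2 scale alone, since the mean linear signal was 7654 in B1 and 7722 in L. For dco the closest high and low lines, B1 and A2, had log2 means of 14.242 and 14.235, and their arrays overlapped. For 8 of the 9 genes the sign was the same in all 5 pairs, against 22.2% of all probe sets, although several of the small differences turned under an alternative. These were the founder differences of ds and dco with arrays centred on their medians, dco in A without replicate 2 of A2, ex in B without replicate 3 of B1, and Fbxl7 in B without replicate 1 of B2 and in C without replicate 1 of C2. The genes were chosen with these results known, so the shares set beside the background describe them and support nothing further. In the model of 36 arrays, which leaves out the spread between pairs, the mean of the 5 pairs passed for 8 genes (5 higher, 3 lower), against 32.7% of all probe sets (16.3% higher and 16.4% lower). Without the founder pair 3 genes were called (ds, l(2)gl and Hipk), and without pair D also 3 (ex, l(2)gl and Hipk).

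**Figure D1:**
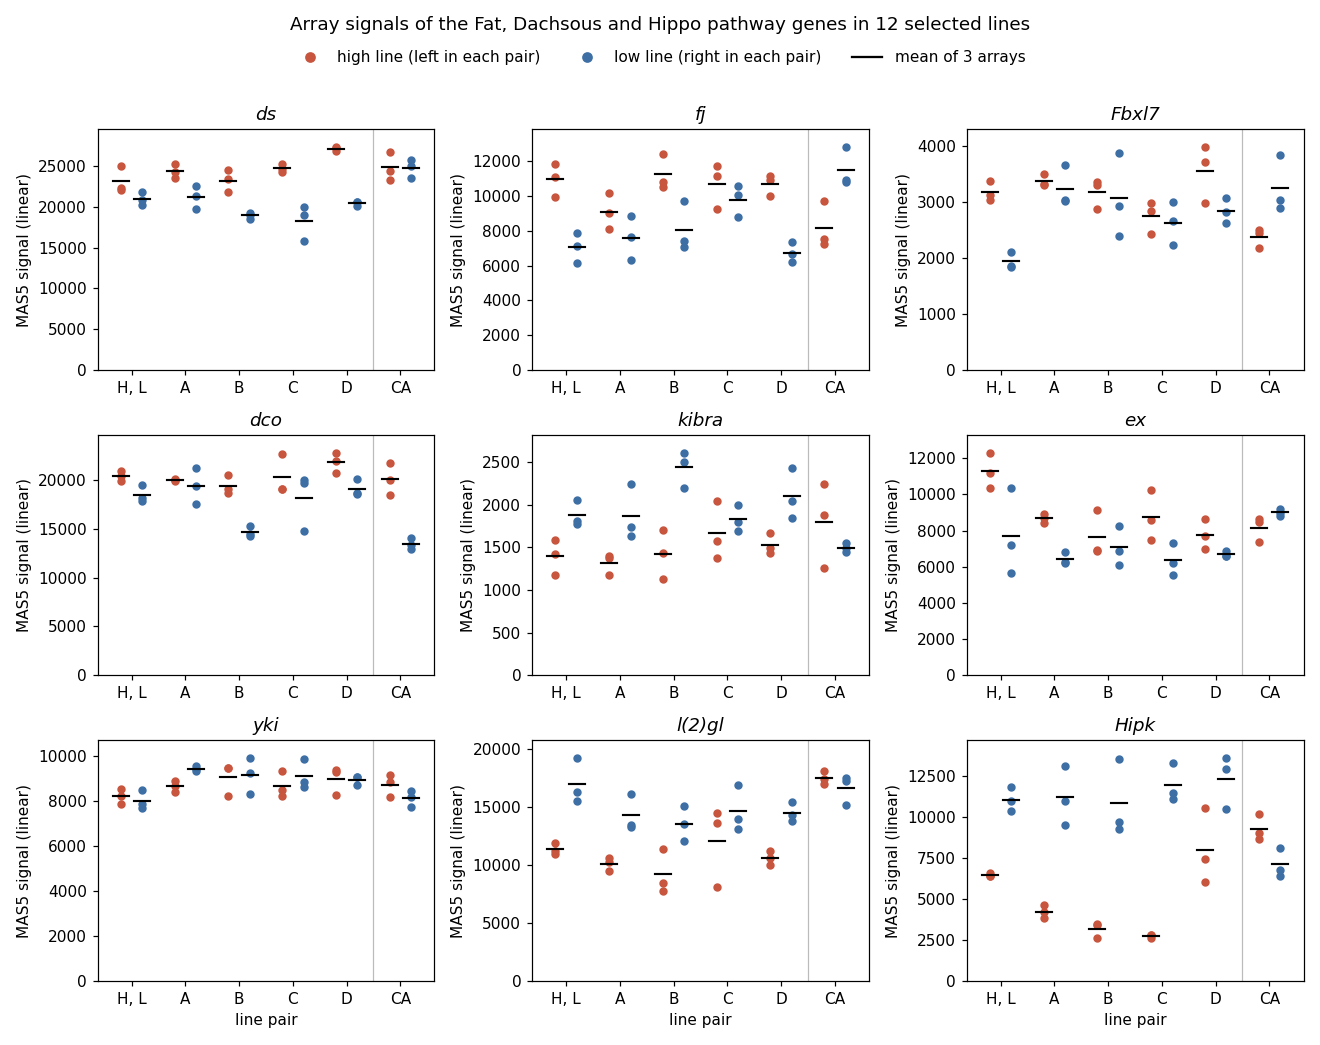
MAS5 signal (linear, from 0) on every array for the 9 genes, with the high line left of the low line in each pair and black bars at the mean of 3 arrays. Hipk and l(2)gl lie lower in the high line of all 5 MA pairs and not in CA, ds lies higher in the 5 MA high lines, and yki varies little.

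The transcript of Dachsous, the cadherin ligand of Fat, was higher in the high line of every MA pair as the authors scaled the arrays. With arrays centred on their medians it was higher in 4 of 5. The signal of ds (probe set 1640627_at) ran from 21841.9 to 27347.3 with a median of 24507.9 on the 15 MA high arrays, and from 15836.3 to 22575.1 with a median of 20167.2 on the 15 MA low arrays. The ranges touch at a narrow band, since 12 high arrays lay above every low array and 14 low arrays below every high array. Line means averaged 24540 ± 1630 in high lines and 19970 ± 1300 in low lines (SD, n = 5 lines each), so ds rose by 0.30 ± 0.05 (SE, adjusted p = 0.0154 by limma), a fold of 1.23.

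The ds difference was 0.14 between H and L, 0.20 in pair A, 0.29 in B, 0.45 in C and 0.41 in D. It passed in all 4 reselected pairs and not between the founders (adjusted p = 0.137). In pair D the arrays were 26851.7, 27347.3 and 27302 in D1 and 20553.2, 20167.2 and 20626.6 in D2, so the lines were far apart relative to their arrays. In pair C they were 24654.7, 24261.3 and 25335.7 in C1 and 15836.3, 19952.7 and 18974.7 in C2, with replicate 1 of C2 the lowest of the series. The call over pairs was lost without pair D (adjusted p = 0.06) and after centring arrays on their medians (0.126). Centring also ended the calls in pair A (0.471) and pair B (0.181), and that in pair A was lost without any 1 of 4 arrays of A1 and A2, with no filter on low signals (0.0675) and without the intensity trend (0.052).

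The transcript of Four-jointed, the kinase that acts on Fat and Dachsous and is itself a Yorkie target, changed in the same direction as ds. The signal of fj (1636091_at) was 8128.8 to 12415.4 with a median of 10819.3 on MA high arrays, and 6149.6 to 10575.7 with a median of 7423.8 on MA low arrays. Of the high arrays 8 lay above every low array, and of the low arrays 10 lay below every high array. Line means averaged 10540 ± 833 in high and 7851 ± 1200 in low lines (SD, n = 5 each), a rise of 0.44 ± 0.08 (SE, adjusted p = 0.0196).

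By pair, fj gave 0.64 between H and L, 0.27 in A, 0.49 in B, 0.13 in C and 0.67 in D. It passed between H and L, in B and in D. In pair D the arrays were 10912, 9995 and 11145.6 in D1 and 6666.6, 7362 and 6194.8 in D2, with no overlap. C2, at 9800 ± 932 (SD, n = 3), was the MA low line with the highest fj. A1, at 9110 ± 1030, was the MA high line with the lowest. The call over pairs was lost without the founder pair (adjusted p = 0.0803), without pair B (0.0561), without pair D (0.0659) and without the intensity trend (0.051), and that in pair B without any 1 of 3 arrays of B1 and B2.

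Discs overgrown (dco) is a casein kinase I that phosphorylates the intracellular domain of Fat. Its transcript was close to the threshold over the MA pairs. Its probe set (1624447_s_at) had line means of 20350 ± 885 in high lines and 17930 ± 1890 in low lines (SD, n = 5 each). The difference of 0.19 ± 0.05 (SE) had adjusted p = 0.0702, was above 0 in 5 of 5 pairs and passed with quantile normalization (0.0373) and without replicate 3 of A2 (0.0416). In line mean B2 stood apart from the other MA low lines, with arrays of 15284, 14248 and 14452.5 against 20527.1, 19031.5 and 18609.6 in B1. Replicate 1 of C2, at 14748.4, lay within the range of B2, and CA low averaged less, at 13420. Pair B was the only MA pair in which dco passed (0.40 ± 0.08, adjusted p = 0.00106).

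Fbxl7 is an F-box protein that acts downstream of Fat. Its transcript passed in 1 of the 5 MA pairs, the founders. Its arrays (1625473_at) gave 3038.7, 3370.8 and 3121.1 in H and 1860.2, 1845.9 and 2103.3 in L, so that H lay 0.71 ± 0.14 above L (SE, adjusted p = 0.000234). L was the line with the lowest level of the 12, and no reselected low line had an array that low. Founders and reselected lines lie in separate runs of title numbers, so this gap cannot be told apart from one between runs. In the reselected pairs the differences were 0.07 in A, 0.08 in B, 0.07 in C and 0.32 in D, and none passed (adjusted p from 0.167 to 0.828). Over the 5 pairs the difference was 0.25 ± 0.10 (SE, adjusted p = 0.183). The test of whether pairs differ gave adjusted p = 0.0508 for Fbxl7, and it passed without any 1 of 7 arrays (lowest p 0.0149, without replicate 1 of B2).

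The transcript of Expanded, a FERM-domain protein at the apical cell edge that promotes Hippo signalling and is induced by Yorkie, rose in high lines. The signal of ex (1625970_at) was 6866.6 to 12305.6 with a median of 8624.7 on MA high arrays and 5562.4 to 10339.3 with a median of 6600.7 on MA low arrays. The low array that reached highest was replicate 1 of the founder L. The arrays of L spread over 10339.3, 7192.3 and 5633.8, against 12305.6, 10365.5 and 11191.5 in H. Line means averaged 8830 ± 1470 in high and 6857 ± 559 in low lines (SD, n = 5 each), a rise of 0.36 ± 0.07 (SE, adjusted p = 0.0236).

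For ex the pair differences were 0.59 between H and L, 0.43 in A, 0.11 in B, 0.46 in C and 0.21 in D, with calls for the founders, A and C. H was the line with the highest level of all 12, and its 3 arrays lay above every array of CA low, the next line. Set against the reselected lines, the level of H cannot be told apart from a difference between runs of title numbers. The call over pairs was lost without replicate 3 of B1 (adjusted p = 0.0606), the founder pair (0.0813), pair A (0.0738) or pair C (0.0529), and without the intensity trend (0.0576). Within pairs it was lost between H and L without replicate 3 of L, in A without any 1 of its 6 arrays, and in C without any 1 of 4 arrays.

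Kibra is a WW-domain scaffold that works beside Expanded and Merlin to promote Hippo signalling and is likewise a Yorkie target. Its transcript moved opposite to ex and fj. The tested probe set of kibra (1624053_at) read 1123.9 to 2045.9 with a median of 1428.1 on MA high arrays and 1632.9 to 2608.7 with a median of 2000.5 on MA low arrays. Of the high arrays 12 lay below every low array. Line means averaged 1466 ± 137 in high lines and 2023 ± 254 in low lines (SD, n = 5 each), a fall of -0.47 ± 0.09 (SE, adjusted p = 0.023).

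Pair B had the widest gap for kibra, with 1123.9, 1430.1 and 1702.1 in B1 and 2504.1, 2193.5 and 2608.7 in B2, a difference of -0.80 (adjusted p = 0.00136). The other pairs gave -0.44 between H and L, -0.50 in A, -0.15 in C and -0.45 in D, of which only A passed (adjusted p = 0.0468), a call lost without any 1 of 18 arrays. The call over pairs was lost without the founder pair (0.0799), A (0.0673), B (0.0513) or D (0.073). The second kibra probe set (1632884_at) had a median signal of 274.4, ranged from 74.9 to 842.8 and had an SD of 0.97 on the log2 scale between arrays of a line. It was not tested, and its pair differences ran from -0.87 to 1.92, above 0 in 3 of 5 pairs, with a mean of 0.51 ± 1.12 (SD, n = 5 pairs). Arrays of 1 pair, C, did not overlap, and there C1 was higher. The mean has the opposite sign to that of the brighter probe set but is smaller than its spread. The dimmer probe set thus does not repeat the fall, and its difference from the brighter one was not tested.

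Lethal (2) giant larvae, l(2)gl, encodes a basolateral polarity protein whose loss overgrows imaginal discs. It was lower in the high line of all 5 MA pairs. The arrays of l(2)gl (1637410_s_at) were 11854.3, 11171.4 and 10962.5 in H and 19168.1, 15520.4 and 16274.2 in L. In pair A they were 10226.7, 10570 and 9418.5 in A1 and 13452.7, 13237.7 and 16118.9 in A2. Neither pair overlaps, and in each the low line was also the more variable.

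Pairs B and D did not overlap for l(2)gl either, and in B the high line was the more variable. The arrays were 7746.2, 8443.1 and 11367.2 in B1 and 15070.1, 13479.1 and 12042.3 in B2. In pair D they were 11168.2, 10004.9 and 10562.1 in D1 and 13732.9, 14236.3 and 15431.2 in D2. Pair C overlapped, with 13622.2, 8107.2 and 14435.5 in C1 and 16858.1, 13963.2 and 13058 in C2. There replicate 2 of C1 stood well below the other 2 arrays of its line.

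The l(2)gl differences were -0.58, -0.50, -0.57, -0.32 and -0.45 for the founders, A, B, C and D, and all but C passed (adjusted p = 0.155 in C). Line means averaged 10640 ± 1110 in high and 14780 ± 1310 in low lines (SD, n = 5 each), a fall of -0.48 ± 0.05 (SE, adjusted p = 0.00159), a fold of 0.715. This call held under all 43 alternatives tried (adjusted p up to 0.0171). The test of whether the pairs differ gave adjusted p = 0.813. Within pairs, the call was lost without replicate 1 of B1 (0.0654), without replicate 3 of A1 or of A2 (up to 0.104) and in D without any 1 of its 6 arrays. The genes whose 12 line means followed l(2)gl most closely were rhea, which encodes the integrin adaptor talin (Pearson r = 0.95), the hemocyte receptor gene crq (0.943) and CG7408 (0.924). Of these crq belongs to the blood cell markers that fell in MA high lines (-1.24, adjusted p = 0.000939).

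Hipk encodes a nuclear kinase that promotes Yorkie activity and also Notch and Wingless signalling. Its transcript had the widest span of the 9 genes, 4.5-fold between the line means of C1 and D2. The founder arrays of Hipk (1639306_s_at) were 6398.6, 6569.7 and 6386.4 in H and 11788.8, 10339.6 and 10950.9 in L. In pair A they were 4617.1, 4186.2 and 3843.7 in A1 and 9490.9, 10951.2 and 13073 in A2. Both pairs were clearly separated, and A1 lay below H.

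In pair B, Hipk read 3462.5, 2586.7 and 3378.8 in B1 and 13528.2, 9706.5 and 9252.5 in B2. Pair C gave 2796.3, 2590.8 and 2781.1 in C1 and 11048.5, 13296.9 and 11470.8 in C2. Pair D gave 10553.9, 5997.5 and 7419.7 in D1 and 12885, 10477.1 and 13563.8 in D2. All arrays of A1, B1 and C1 lay below every array of H, while D1 overlapped D2 through its replicate 1.

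The low lines were alike, at 11460 ± 636 (SD, n = 5), whereas the high lines averaged 4905 ± 2250. Hipk fell by 1.35 ± 0.21 on the log2 scale over the pairs (SE, adjusted p = 0.00847), and the call held under all 43 alternatives (adjusted p up to 0.0303). It was the 1 gene of the 9 called with the same sign in all 5 pairs, against 1.86% of all probe sets. In pair D that call was lost without replicate 2 of D1 (0.0654). The differences were -0.77 between H and L, -1.40 in A, -1.78 in B, -2.13 in C and -0.65 in D.

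The size of the Hipk difference was not alike in the MA pairs (moderated F = 17, adjusted p = 1.28e-05). By this test 15.9% of all probe sets and no other gene of the 9 passed. In order of level the lines ran D2, C2, A2, L, B2, CA high, D1, CA low, H, A1, B1 and C1, from 12310 to 2723. Arrays of neighbouring lines overlapped down to H, and did not overlap between H and A1 or between A1 and B1. The reselected lines and the founders lie in separate runs of title numbers, so a difference between H and a reselected line cannot be told apart from one between runs. Across the 12 lines the closest patterns were those of ec (Pearson r = 0.946), obst-B (0.936) and CG9107 (0.926). Over the MA pairs ec gave -1.64 (adjusted p = 0.00695), CG9107 -0.65 (0.0114) and obst-B -0.29 (0.0918).

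**Figure D2:**
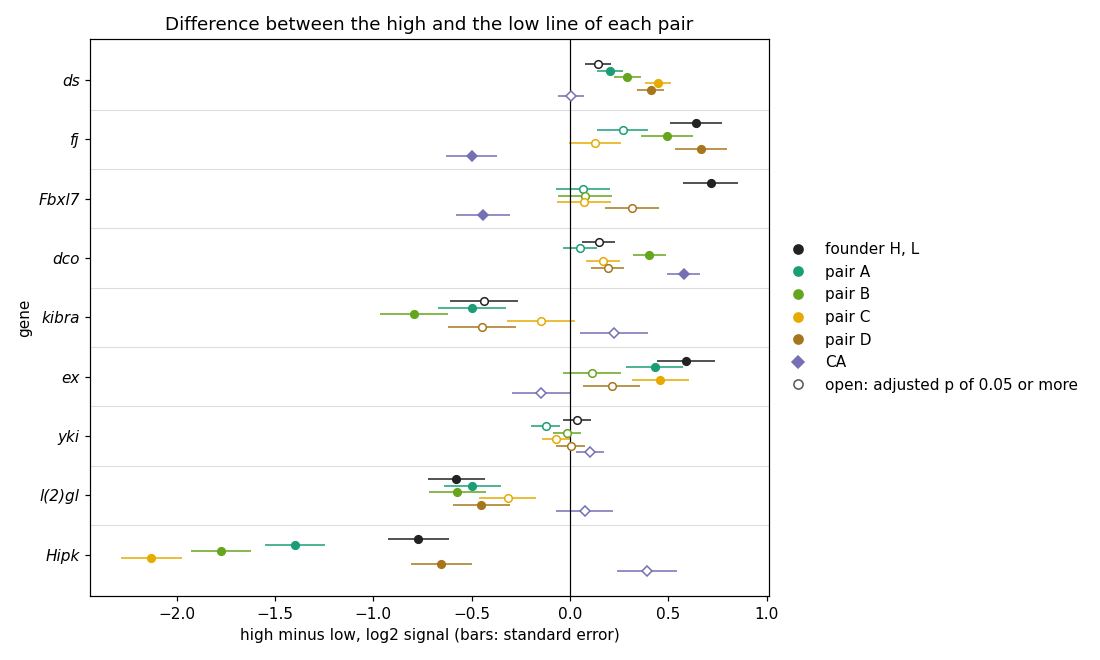
Log2 high minus low signal for each gene in the founder pair, pairs A to D and the CA pair, with the standard error from the model of 36 arrays, where filled symbols had an adjusted p below 0.05. Hipk spreads from -2.13 to -0.65 over the MA pairs while l(2)gl keeps within -0.58 and -0.32, and the CA diamond lies outside the MA range for every gene.

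Yorkie, the coactivator that the pathway restrains, is controlled mainly through phosphorylation and location. Its transcript was the steadiest of the 9. The signal of yki (1628461_a_at) was 7868 to 9483.5 with a median of 8554.5 on MA high arrays and 7712.5 to 9918.5 with a median of 9087.2 on MA low arrays, with heavy overlap. Line means averaged 8729 ± 332 in high and 8947 ± 542 in low lines (SD, n = 5 each). The difference was -0.03 (95% interval -0.13 to 0.06, adjusted p = 0.685), above 0 in 2 pairs and below in 3.

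The SD of yki between line means was 0.07 on the log2 scale, against 0.08 within a line. Over all probe sets tested the median SD was 0.18 between and 0.16 within lines. For the other 8 genes the SD between lines exceeded that within lines, for example 0.18 against 0.08 for ds and 0.76 against 0.20 for Hipk. A test for any difference among the 12 lines passed for these 8 genes (adjusted p from 2.85e-14 for Hipk to 0.00106 for kibra) and for 64.5% of all probe sets. For yki it gave adjusted p = 0.0735, which fell below 0.05 without any 1 of 4 arrays and with arrays centred on their medians.

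Counted within single pairs, 5 of the 9 genes were called between H and L (3 higher, 2 lower in H), against 22.4% of all probe sets (10.9% higher and 11.6% lower). Of the calls over all probe sets 48.4% were higher in H, and 11.2% once arrays were centred on their medians. Pair A had 5, of which 2 were higher and 3 lower in A1, against 15.7% of all probe sets (7.76% higher and 7.97% lower). Pair B had 6, of which 3 were higher and 3 lower, against 12.7% (6.3% and 6.37%). Pair C had 3, of which 2 were higher and 1 lower, against 14.2% (6.8% and 7.36%), and pair D had 4, of which 2 were higher and 2 lower, against 10% (4.98% and 5.07%). Pair A, where most calls lay near the threshold, kept 1 without replicate 3 of A1 or of A2, 2 without replicate 1 of A1 or replicate 2 of A2 and 3 without replicate 2 of A1. Pair D kept 2 without replicate 2 of D1. Centring arrays on their medians turned the founder differences of ds (to -0.10) and dco (to -0.09), neither of which passed either way, and ended the founder call of ex.

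The California pair, a separate selection in the same directions, mostly did not follow the MA pattern. Only dco passed there with the sign it had in all 5 MA pairs. Of the 9 genes 3 were called there, dco higher and fj and Fbxl7 lower in the high line, against 17% of all probe sets, of whose calls 46.8% were higher in CA high and 62.7% under centring. The dco arrays were 18471.3, 19955.6 and 21759.3 in CA high and 13306.1, 14021.4 and 12933.9 in CA low, a rise of 0.58 ± 0.08 (SE, adjusted p = 5.74e-06). CA low had the lowest dco of all 12 lines, with B2 next above it and no overlap between these 2.

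For fj the CA arrays were 7268.6, 9718.3 and 7544 in CA high and 12812, 10917 and 10803.8 in CA low, so fj fell (-0.50 ± 0.13, adjusted p = 0.00619) where it rose in MA. Fbxl7 read 2185.3, 2452 and 2501.9 in CA high and 3038.5, 2898 and 3831.1 in CA low, a fall of -0.44 ± 0.14 (adjusted p = 0.0229). Both calls were lost with arrays centred on their medians, fj also without replicate 1 of CA low (0.0507) and Fbxl7 without replicate 1 of CA high or replicate 3 of CA low (up to 0.176). The blood cell marker sum was 9311 in CA high and 15350 in CA low. Of its 9 tested probe sets 3 fell there, and 1 with arrays centred on their medians. The tracheal sum was 29460 in CA high and 15760 in CA low, most of it from Gasp. Over all arrays Gasp averaged 18780, against 2654 for Cht7 and 356 for btl.

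The other genes did not pass in CA. Hipk read 8985.1, 8649.7 and 10185.8 in CA high and 6395.5, 6775.7 and 8106.4 in CA low, which do not overlap and give 0.39 ± 0.15 (adjusted p = 0.0827), passing without replicate 1 of D1 (0.0406). The l(2)gl signal was high in both lines, at 17460 ± 578 in CA high and 16600 ± 1300 in CA low (SD, n = 3 each), a difference of 0.08 (95% interval -0.22 to 0.37). For ds the lines averaged 24880 ± 1750 and 24780 ± 1090, a difference of 0.00 (-0.13 to 0.14). Kibra gave 0.22, ex -0.15 and yki 0.10.

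Set against the mean of the MA pairs, the CA difference departed for 8 of the 9 genes, against 22.8% of all probe sets (10.8% higher and 11.9% lower, and 68.2% of calls higher under centring against 47.6%), and yki was the exception (0.14 ± 0.08, adjusted p = 0.237). It was lower for ds (-0.29 ± 0.07), fj (-0.94 ± 0.14), Fbxl7 (-0.69 ± 0.15) and ex (-0.51 ± 0.16), and higher for dco (0.39 ± 0.09), kibra (0.69 ± 0.19), l(2)gl (0.56 ± 0.16) and Hipk (1.74 ± 0.17, adjusted p = 1.96e-09). For 9 of 9 genes the CA value lay outside the range of the 5 MA pairs, which held for 47.4% of all probe sets. For dco the CA sign was that of the MA pairs and the rise was larger. For fj, Fbxl7, kibra, ex, l(2)gl and Hipk the CA sign was opposite to a sign shared by all MA pairs, against 11.5% of all probe sets. These errors come from arrays and leave out the spread between MA pairs. Centring arrays on their medians ended the departures of ds (-0.17, adjusted p = 0.435) and ex (-0.38, 0.106). That of ex was also lost without replicate 2 of CA high (0.0859) or replicate 3 of CA low (0.0546), and that of kibra without replicate 3 of CA high (0.0646). With H and L alone in place of the MA mean, which lie in the same run of title numbers as CA, 6 passed (3 higher, 3 lower), against 21% of all probe sets (10.2% higher and 10.8% lower), and ds (adjusted p = 0.338) and kibra (0.052) did not.

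Most other genes of the pathway did not pass. Among 60 further genes in 5 lists 49 had a probe set, and 62 probe sets of 47 genes were tested. In the paragraphs on these lists, ± gives the SD over the 5 MA pairs and not a standard error. Over the MA pairs 8 rose, 2 fell and 52 did not pass, against 4.92% higher and 4.76% lower over all probe sets, and the median difference was -0.002 against 0.005. The count that rose was 3 with arrays centred on their medians, 2 without the intensity trend, 1 (mor) without the founder pair, 4 without pair A, B, C or D, 5 with no filter on low signals and 5 without replicate 1 of A2. The count that fell was 0 without pair A, B or D, 1 without the founder pair, 1 without replicate 3 of L, 1 under centring, 1 with no filter and 1 without the trend.

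Among the partners of Fat and Dachsous, app, a palmitoyltransferase that opposes Fat, averaged 3441 in high and 2861 in low lines (0.28 ± 0.16, SD over 5 pairs, adjusted p = 0.0473), and its dimmer probe set gave -0.03. Gug, the Atrophin corepressor that binds Fat, gave 0.22 ± 0.13 (0.0499). These were the 2 called of 5 probe sets. The call of app was lost without any 1 of 12 arrays and that of Gug without any 1 of 20. The Fat-binding gene lft gave -0.19 (0.0624) and Dlish -0.08 (0.398).

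The Hippo kinase core had 1 gene higher and 1 lower among 16 probe sets. Strip and Mob4, both of the STRIPAK phosphatase complex that acts on Hippo, gave 0.22 ± 0.10 (adjusted p = 0.0303) and -0.16 ± 0.04 (0.033). Both calls were lost without any 1 of the 5 pairs, under centring (0.264 for Strip and 0.108 for Mob4) and without the intensity trend. The kinase gene hpo itself gave -0.08 (0.429), wts 0.14 (0.237), and the adaptor genes sav 0.00 (0.988) and mats -0.08 (0.317).

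Of 25 probe sets for upstream membrane and polarity regulators 2 rose and none fell. The kinase gene aPKC, whose product antagonises Lethal (2) giant larvae, averaged 9348 in high and 6381 in low lines (0.58 ± 0.36, adjusted p = 0.0272), higher in 4 of 5 pairs, with a dim second probe set at -0.59 that was not tested. Its call was lost without the founder pair (0.107) or pair A, B or C, and without the intensity trend (0.0636). The adhesion gene ed gave 0.24 ± 0.14 (0.0432) and was lost without any 1 of 9 arrays, under centring (0.176) and without the founder pair (0.148). The polarity gene scrib, a partner of l(2)gl, gave -0.06 (0.637) on its brightest probe set, and Merlin (Mer) -0.04 (0.753).

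Among 14 probe sets for Yorkie partners and nuclear regulators 3 rose and 1 fell. The Brahma complex genes osa, at 6006 in high and 3486 in low lines (0.80 ± 0.38, adjusted p = 0.01), and mor (0.26 ± 0.08, 0.011) rose, as did Mad, the transcription factor of Dpp signalling (0.36 ± 0.18, 0.0203). The gene of the complex's ATPase, brm, gave -0.01 (0.959). Without the founder pair osa (0.0502) and Mad (0.0844) were lost, without the intensity trend Mad (0.0533), and under centring mor (0.113). The gene 14-3-3zeta, which encodes a protein that binds phosphorylated Yorkie, fell (-0.34 ± 0.15, 0.0307), a call lost without any 1 of 2 arrays and without pair A, B or D. Of the 10 genes in the Yorkie target list only 4 had a probe set. Diap1, E2f1, Myc, dally, wg and Ser had none, so their response was not measured. The 5 probe sets of the 4 genes were tested and none passed. CycE gave 0.13 (0.398), dlp 0.11 (0.231) and vg 0.10 and 0.33 (0.409 and 0.272). The Yorkie targets ex, fj and kibra, described above, are not in this list, and each was called over the MA pairs.

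**Figure D3:**
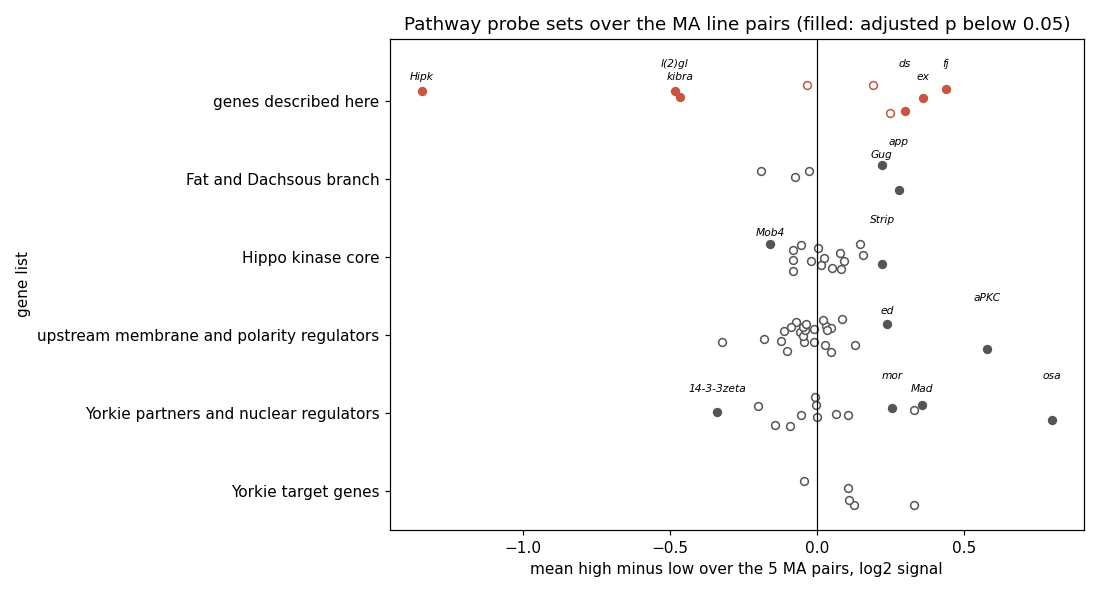
Mean log2 high minus low over the 5 MA pairs for each tested probe set of the 9 genes (red) and of 5 pathway lists (grey), filled where the adjusted p was below 0.05, with scatter along the vertical for legibility. Most pathway probe sets lie near 0, and Hipk lies farthest from 0, at -1.35.

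In the CA pair 1 of the 62 pathway probe sets rose, that of hpo (0.18, adjusted p = 0.0455), which was named after its value was seen and was lost without any 1 of 11 arrays. Another 9 fell, among them lft (-0.26, 0.0077), msn (-0.57, 0.0275) and the brightest of scrib (-0.37, 0.000503). Over all probe sets 7.97% were higher and 9.05% lower there. With arrays centred on their medians none of the 10 was called.

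The expression patterns closest to the remaining called genes were, for ds, TTLL4B (Pearson r = 0.942 over 12 line means), the ecdysone-inducible gene ImpE1 (0.931) and the Hedgehog signal transducer smo (0.914). For kibra they were the ecdysone-induced receptor gene Hr3 (0.93), the insulin-binding protein gene ImpL2 (0.91) and CG13023 (0.903). Those closest to ex were alpha-Man-IIb (0.935), the integrin gene mys (0.935) and cmet (0.925), and those closest to fj were Grip91 (0.919), CG32373 (0.902) and yellow-e2 (0.866). Over the MA pairs ImpE1 gave 1.31 (adjusted p = 0.000644), Hr3 -1.66 (0.01) and ImpL2 -0.78 (0.0151). These correlations were the highest among all tested probe sets with 1 gene name, share the same arrays and describe those lines only.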

How the data were processed

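Wing disc RNA of 12 lines was measured on 36 Affymetrix arrays. The deposited values are linear intensity values made with MAS5, as the submitters' processing notes name it (version not given in the sources used here). The table held 18952 probe sets, of which 183 controls were left out. Genes were named from the platform's annotation, with 13647 probe sets naming a single gene, 402 naming several genes and 4720 unnamed, and list symbols were matched through the gene table of Release 6 plus ISO1 MT. Signals were taken to log2 with no pseudocount, and 9385 probe sets at or above the median were tested in R 4.3.3 with limma 3.58.1 and an intensity trend, with 24 residual degrees of freedom for arrays and 4 for line means. Contrasts were high minus low per pair, over the MA line pairs, between the MA pairs (moderated F), CA against MA, and among all lines. The fit was run on simulated data with changes larger than most described here, so that run supports none of these calls. Named genes are the 9 measured genes, pathway genes called over the MA pairs (up to 6 per list) and the 3 closest patterns of each called gene. Pathway genes that were not called over the MA pairs, and those given for CA, were named for their known role after their values were seen. The genes, lists and tests were chosen with earlier results of these data known. Alternatives were array scaling, a pseudocount of the 10th percentile, no filter, no trend, blocks, and each array or pair left out.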

Additional observations from a re-analysis of the deposited data

Results flagged for a closer look

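Hipk differed in size between the MA pairs (moderated F, adjusted p = 1.28e-05). The California difference departed from the MA mean by -0.29 for ds, -0.94 for fj, -0.69 for Fbxl7, 0.39 for dco, 0.69 for kibra, -0.51 for ex, 0.56 for l(2)gl and 1.74 for Hipk, each tested as a contrast in limma. Those of ds (adjusted p = 0.435) and ex (0.106) were lost with arrays centred on their medians, ex also without replicate 2 of CA high or replicate 3 of CA low, and kibra without replicate 3 of CA high (0.0646). Line A1 lay below the other MA high lines for fj, at a log2 mean of 13.15, and line B2 below the other MA low lines for dco, at 13.84. Both gaps between line means passed Dixon's 95% critical value, which chance alone passes in about 1 of 20 groups, and 18 groups of 5 lines were looked at. Single arrays were less apart. Those of A1 overlapped arrays of C1, H and D1 for fj, and replicate 1 of C2 lay within the range of B2 for dco.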

How the results depend on the processing

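Of 3798 recomputed values of the 9 genes, none that was called changed sign, 87 lost a call, 30 gained one and 15 that were never called changed sign. l(2)gl and Hipk kept their calls over the MA pairs under all 43 alternatives. Under centring of arrays on their medians, the median H minus L difference of all probe sets moved to -0.20 and the share of its calls that were higher to 11.2%, against 48.4% as reported, that in CA to 62.7% (46.8%) and that of CA against MA to 68.2% (47.6%). The number called was then 729 in pair A (1476 as reported), 713 in B (1189), 745 in C (1329), 529 in D (943), 969 in CA (1597) and 926 for the difference between MA pairs (1489), and 3 of the 9 genes were called in A (5) and 1 in CA (3). In pair A 2 were called with no filter on low signals and 2 without the intensity trend. Over the MA pairs 369 probe sets (3 of the 9 genes) were called without the founder pair, 580 without pair A, 478 (3 genes) without pair D and 3069 from the mean of 5 pairs in the model of 36 arrays, against 909 (6 genes) as reported. The cause of these changes was not tested. In no pair did all 3 same-numbered arrays correlate above 0.1 (from -0.064 to 0.188 over the 6 pairs), so the numbers were not taken as pairs. All 3 arrays of CA high nevertheless correlated best with the CA low array of the same number (0.048 to 0.108). This held for 2 of 3 high arrays in A and in D, 1 in B and in C, and 0 between the founders. With the replicate block, 3132 were called over the MA pairs in the model of 36 arrays and 2 of the 9 genes for the difference between MA pairs. The comparison of CA with H and L alone was added after seeing the data. Leaving out 1 array gave 4 to 6 of the 9 genes between H and L, 1 to 5 in A, 4 to 6 in B, 2 to 3 in C, 2 to 4 in D, 2 to 4 in CA, 5 to 7 over the MA pairs, 7 to 8 for CA against MA, 1 to 3 for the difference between MA pairs and 8 to 9 among all lines. In pair C it gave 837 to 1439 probe sets. Every signal of the tested genes lay well above the filter level of 259.72, while the second kibra probe set lay near it.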
